A study of Mus musculus with 6 samples.

Results

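Chemokines are small secreted proteins that guide the movement of leukocytes, and 10 of their genes that myeloid cells can express were examined in mouse leukemia cells with and without the nuclear receptor gene Ppara. The genes were Ccl2, Ccl3, Ccl4, Ccl5, Ccl6, Ccl7 and Ccl9 of the CC class and Cxcl2, Cxcl10 and Cxcl16 of the CXC class, 10 of 30142 genes measured. They were taken by symbol from the probe sets paired with exactly 1 gene symbol. Of several such probe sets the one with the highest mean over the 6 arrays was to be used, but each of the 10 genes had 1, so no gene or row was in effect selected on its measured mean. The list itself was chosen by symbol with earlier results of these data known, the lower signals of Ccl6 and Ccl2 in Ppara-/- cells among them, so their differences are a description of these arrays and not independent evidence.

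RNA was profiled in 6 samples of leukemia cells, 3 from Ppara+/+ and 3 from Ppara-/- leukemia. All 6 carried MLL-AF9, a fusion oncogene, which was delivered with green fluorescent protein (GFP) by an MSCV retrovirus, which places both behind the same viral promoter. Ppara-/- leukemia had been made in cells of mice with a disrupted Ppara gene and Ppara+/+ leukemia in cells with the intact gene. The cells were marrow mononuclear cells of secondary transplant recipients, sorted for GFP, so that GFP-negative cells of the host were to be left behind. The age, the strain and the Ppara genotype of the recipients are not given in the labels, and neither is whether each replicate came from its own animal or primary leukemia. The p-values therefore measure the spread between these samples, which may be technical.

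The CC and CXC classes are named for the spacing of their first cysteines, and the ligands act through receptors coupled to G proteins. CCL2 and CCL7 attract monocytes through CCR2, and CCL3, CCL5, CCL6, CCL7 and CCL9 act on CCR1. CXCL2 attracts neutrophils through CXCR2, CXCL10 attracts activated T and NK cells through CXCR3, and CXCL16, a membrane-bound ligand that can be shed, binds CXCR6. In myeloid cells many of these genes are switched on within hours by NF-kB after Toll-like receptor or cytokine signals, and Cxcl10 also by interferons.

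RefSeq promoter sequences were at hand for 5 of the 10 genes (build GRCm38.p6), and 4 are shown because they hold a motif of the PPAR family or of NF-kB. Each is the 250 bases before the start of the gene, 5′ to 3′ on the strand of the gene. Capitals in Ccl6 mark a match to the direct repeat bound by PPAR and RXR pairs, searched as 2 copies of AGGNCA with 1 base between them. Capitals in the other 3 mark matches to a loose form of the NF-kB site, searched as GGG and CC with any 5 bases between them.
Ccl6, chr11:83593088-83593337, minus strand: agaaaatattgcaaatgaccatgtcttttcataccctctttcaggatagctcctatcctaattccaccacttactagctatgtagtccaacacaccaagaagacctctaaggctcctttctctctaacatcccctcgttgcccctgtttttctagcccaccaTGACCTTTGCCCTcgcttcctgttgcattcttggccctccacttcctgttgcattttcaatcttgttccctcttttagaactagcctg
Ccl9, chr11:83578637-83578886, minus strand: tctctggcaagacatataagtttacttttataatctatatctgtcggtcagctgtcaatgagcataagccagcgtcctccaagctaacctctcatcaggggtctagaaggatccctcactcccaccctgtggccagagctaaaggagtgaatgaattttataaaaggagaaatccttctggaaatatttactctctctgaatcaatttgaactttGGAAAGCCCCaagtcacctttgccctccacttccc
Cxcl2, chr5:90903649-90903898, plus strand: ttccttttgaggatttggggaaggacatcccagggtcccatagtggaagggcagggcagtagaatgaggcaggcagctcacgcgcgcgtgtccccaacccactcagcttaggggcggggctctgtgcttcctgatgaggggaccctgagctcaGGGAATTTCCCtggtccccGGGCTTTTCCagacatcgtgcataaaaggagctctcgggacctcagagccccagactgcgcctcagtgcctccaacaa
Cxcl10, chr5:92348890-92349139, minus strand: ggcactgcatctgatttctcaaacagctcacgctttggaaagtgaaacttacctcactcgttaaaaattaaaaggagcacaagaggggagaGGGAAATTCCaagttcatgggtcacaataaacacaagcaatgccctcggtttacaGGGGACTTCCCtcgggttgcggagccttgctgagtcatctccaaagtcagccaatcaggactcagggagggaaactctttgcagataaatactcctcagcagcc
Both strands were searched in the 300 bases from 250 before to 50 after the start. The direct repeat was found in 0.381% of 32851 promoters, and in 1 of the 5 here, that of Ccl6, on the strand opposite to the gene and with its first base 88 bases before the start. The promoter of Ccl9, the neighbour of Ccl6, came within 1 mismatch of the 10 fixed letters, those of Ccl3 and Cxcl10 within 2 and that of Cxcl2 within 3. The NF-kB form was found in 50.8% of all promoters and in 3 of the 5. Cxcl2 had a run whose matches on both strands overlap, GGGAATTTCC at 97 bases before the start, and a second match, GGGCTTTTCC, at 78 bases. Cxcl10 had GGGAAATTCC at 159 bases and 2 overlapping matches from 104 bases. It was also the 1 promoter of the 5 with a form of the interferon response element, searched as GAAA repeated after any 2 bases, which 3.44% of promoters held. A further AP-1 motif, TGANTCA, was in Cxcl10 and Ccl9 (7.81% of promoters), GAGGAA, a core bound by PU.1, in Cxcl2 and Ccl3 (28.3%), and a C/EBP motif, TTGC and AA with any 2 bases between, in 0 of 5 (10.8%). Such a match is a description of letters and shows no binding.

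Deposited log2 signals lay between 1.67 and 14.42. The median over the genes of an array ran from 5.16 (Ppara+/+ replicate 1) to 5.41 (Ppara+/+ replicate 2). The 5222 negative-control probe sets had medians of 4.63 to 5.16 and 95th percentiles of 7.91 to 8.23, and their median was highest on Ppara+/+ replicate 1 (5.16) and Ppara-/- replicate 2 (4.99). The Ppara probe set itself read 5.05 to 5.29 in Ppara-/- and 4.87 to 5.19 in Ppara+/+ samples, close to those medians. Its place in the gene cannot be read from the files, and these values check no label. Genes of myeloid progenitors were bright in all samples, with Elane between 11.97 and 12.88, Mpo between 11.00 and 11.95 and Myb between 10.66 and 11.35.

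Signals of different probe sets cannot be ranked against each other, so each ligand was set against the negative controls of the same array. Ccl3 lay above their 95th percentile on 6 of 6 arrays, Cxcl2 on 5 and Ccl9 on 2. The other 7 lay under it on all 6. Of these, Ccl2, Ccl4, Ccl5 and Ccl6 were above the negative-control median on all 6 arrays, Cxcl16 on 4 and Cxcl10 on 3. Ccl7 was above it on 0 of 6, with signals of 4.25 to 4.43, so its RNA was not seen above background.

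Between the genotypes, Ccl6 was the 1 ligand gene of the 10 that passed the test, and it was lower in Ppara-/- leukemia. The signal of Ccl2 lay about as far down with more spread and did not pass, and the other 8 genes overlapped between the genotypes. The test was limma's moderated test, two-sided, adjusted by the Benjamini-Hochberg method across the 30142 genes, and an adjusted p under 0.05 was taken as a call. Over all genes it called 38, which is 0.126%, and 20 of them were lower (0.0664%). At an unadjusted p under 0.05 stood 2 of the 10, against 5.78% of all genes. The 3 values of a genotype lay clear of the other 3 in 2 of the 10, both lower in Ppara-/-, against 8.78% of all genes in either direction and 3.63% lower.

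**Figure D1:**
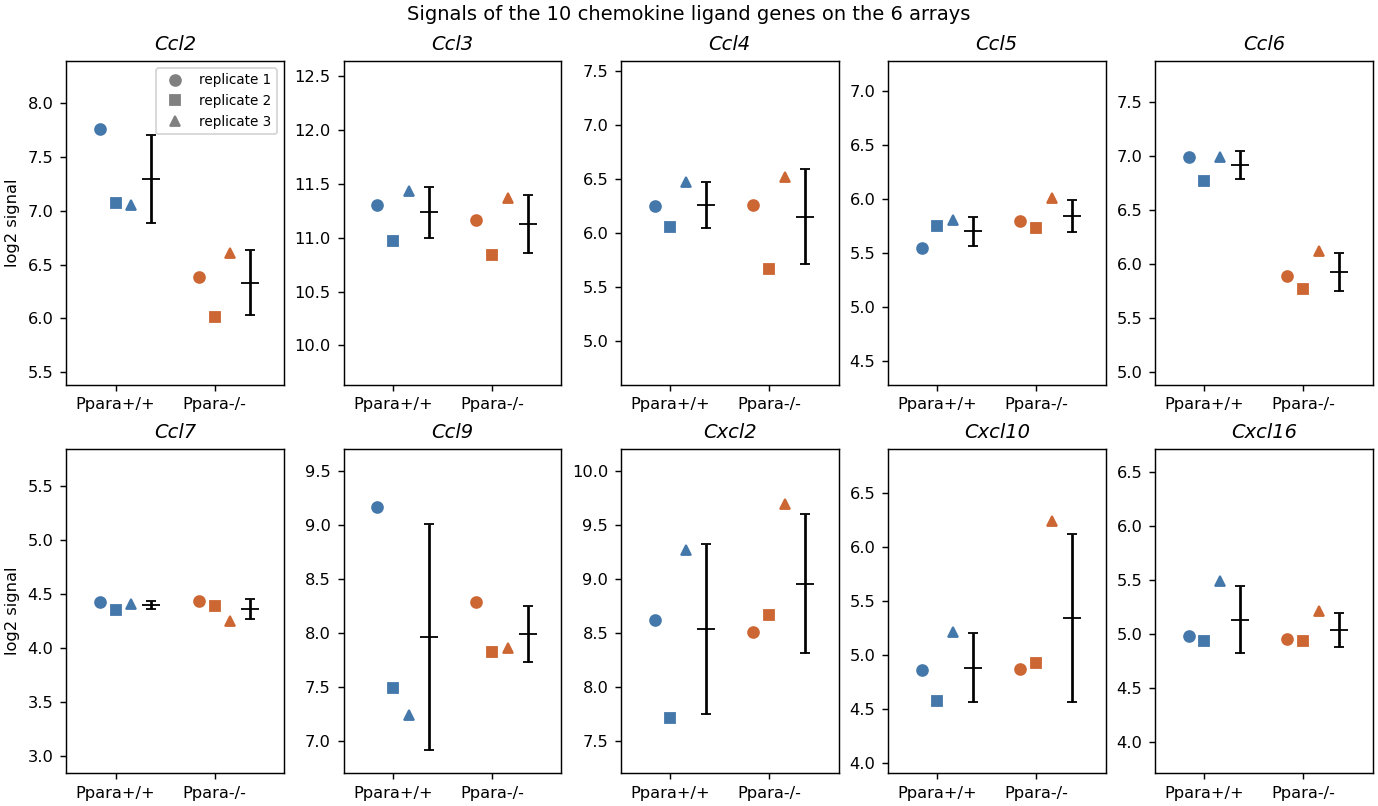
Log2 signal (vertical axis) of each ligand gene in 3 Ppara+/+ and 3 Ppara-/- samples; circles, squares and triangles are replicates 1, 2 and 3, the bar is the mean ± SD, and every panel spans 3 log2 units at its own level. Ccl6 and Ccl2 are the 2 genes in which all Ppara-/- points lie under all Ppara+/+ points.

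Ccl6, a CC chemokine of macrophages and other myeloid cells that rodents have and humans lack, gave 6.99, 6.77 and 6.99 in Ppara+/+ replicates 1 to 3. In Ppara-/- replicates 1 to 3 it gave 5.89, 5.77 and 6.12. The groups did not overlap, and the gap between them was wider than the range inside either. The mean fell from 6.92 ± 0.13 to 5.93 ± 0.18 (SD, n = 3), a log2 difference of -0.99 (SE 0.12, 95% interval -1.27 to -0.71; limma adjusted p = 0.0364), or 1.99-fold lower signal. All values were under the 95th percentile of the negative controls. In bulk RNA, fewer cells that express a gene and less RNA per cell cannot be told apart.

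The size of the Ccl6 difference was steadier than its call. In 17 other fits, with other processing or arrays left out, the difference lay between -1.09 and -0.87, and it passed the threshold in 6, with adjusted p from 0.0048 to 0.617. The call was lost with Ppara+/+ replicate 1 left out (limma adjusted p = 0.0785), with Ppara+/+ replicate 3 (0.171), and with Ppara-/- replicate 1 (0.235), 2 (0.0983) or 3 (0.0511). Without both arrays of the highest negative-control signal it was -0.88 (limma adjusted p = 0.242), in a fit that called 0 of all genes, with 2870 at an unadjusted p under 0.05.

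Ccl2, the monocyte attractant MCP-1, gave 7.76, 7.07 and 7.05 in Ppara+/+ replicates 1 to 3 and 6.38, 6.01 and 6.61 in Ppara-/- replicates 1 to 3. The lowest Ppara+/+ value stood above the highest Ppara-/- value, and replicate 1 of Ppara+/+ stood apart at the top. The log2 difference was -0.96 (SE 0.22, 95% interval -1.46 to -0.46; 7.29 ± 0.40 against 6.33 ± 0.30, SD, n = 3), and it did not pass over all genes (limma adjusted p = 0.244). It was -0.73 without Ppara+/+ replicate 1 and -0.57 without that array and Ppara-/- replicate 2. In 17 of 17 other fits it was negative and in 0 past the threshold (unadjusted p = 0.00199 with all arrays; lowest adjusted p = 0.056). Ccl7, which lies next to Ccl2 and shares its receptor, had a log2 difference of -0.04 (interval -0.26 to 0.19) at the level of the negative controls.

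Ccl9 sits beside Ccl6 in the chemokine cluster of chromosome 11, shares its receptor CCR1, and is like it a rodent myeloid chemokine. Its signals were 9.17, 7.49 and 7.24 in Ppara+/+ and 8.29, 7.83 and 7.86 in Ppara-/- replicates 1 to 3. The 3 Ppara-/- values lay inside the range of the Ppara+/+ values, which spread over 1.93 log2 units. The log2 difference was 0.03 (SE 0.44, limma adjusted p = 0.997), with a wide interval of -0.97 to 1.02. Its lower end falls just short of the Ccl6 difference of -0.99, so a fall nearly as large lies inside it. The Ccl9 difference was 0.63 without Ppara+/+ replicate 1 and -0.34 without Ppara+/+ replicate 3, so its sign depended on the arrays kept.

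Ccl3 and Ccl4 encode the macrophage inflammatory proteins MIP-1 alpha and MIP-1 beta and follow Ccl6 on the chromosome. Ccl3 gave 11.30, 10.97 and 11.43 in Ppara+/+ and 11.16, 10.84 and 11.37 in Ppara-/- replicates 1 to 3. These were bright and close on all arrays, and the interval of the log2 difference of -0.11 ran from -0.49 to 0.27 (limma adjusted p = 0.997). Ccl4 gave 6.25, 6.05 and 6.47 against 6.26, 5.66 and 6.52, also with a difference of -0.11 (interval -0.60 to 0.38). The Ppara+/+ values of Ccl4 lay inside the range of the Ppara-/- values, the lowest of which was on replicate 2. Without that array the differences of Ccl3 and Ccl4 were 0.03 and 0.13. Ccl5, or RANTES, which T and NK cells also make, gave 5.55, 5.75 and 5.81 against 5.80, 5.73 and 6.01 (difference 0.14, interval -0.13 to 0.42). Leaving out Ppara-/- replicate 3 made that difference 0.06, and leaving out replicate 1 of Ppara+/+ made it 0.07.

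The CXC ligands spread more within the genotypes than between them. Cxcl2, a neutrophil attractant, gave 8.62, 7.71 and 9.27 in Ppara+/+ and 8.51, 8.66 and 9.69 in Ppara-/- replicates 1 to 3. Replicate 3 of each genotype was the highest and the groups overlapped, with a log2 difference of 0.42 (SE 0.41, interval -0.52 to 1.36; limma adjusted p = 0.997). That difference depended on the arrays kept, with 0.01 when Ppara+/+ replicate 2 was dropped, 0.05 when replicate 3 of Ppara-/- was, and 0.79 for replicate 3 of Ppara+/+. Cxcl10 gave 4.86, 4.57 and 5.21 against 4.87, 4.92 and 6.24. Its 1 value above the other 5 by more than a log2 unit was on Ppara-/- replicate 3, and the difference of 0.46 (interval -0.32 to 1.25) was 0.02 without that array. Cxcl16 gave 4.98, 4.94 and 5.49 against 4.96, 4.94 and 5.22, a difference of -0.10 (interval -0.47 to 0.28).

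**Figure D2:**
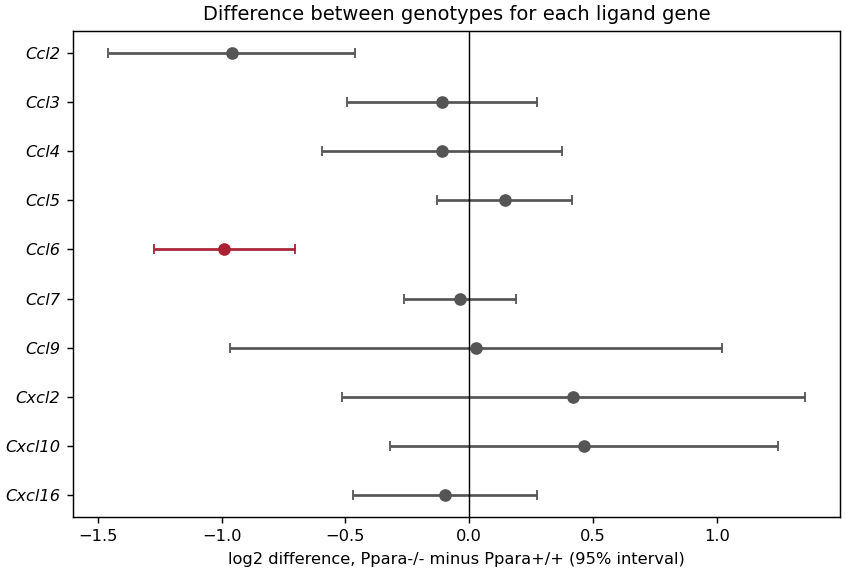
Log2 difference, Ppara-/- minus Ppara+/+ (horizontal axis), with its 95% interval from limma for the 10 ligand genes; red marks the gene past the adjusted threshold. The intervals of Ccl6 and Ccl2 lie wholly under 0, and those of Ccl9, Cxcl2 and Cxcl10 are the widest.

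As a group the ligands had 6 negative and 4 positive differences with a median of -0.07, beside a median of 0.02 over all genes. Shifting each array by its negative-control median moved the median of all genes to 0.15, and then 2 of the 10 were negative, Ccl6 and Ccl2. The 95% interval lay within 1 log2 unit of 0 in 5 of the 10 genes (Ccl3, Ccl4, Ccl5, Ccl7 and Cxcl16), so that a doubling or halving of the signal is outside it. Ccl7 and Cxcl16 were near the negative controls, where a change of RNA can go unseen. In the gene order of RefSeq, Ccl5, Ccl9, Ccl6, Ccl3 and Ccl4 follow each other directly on chromosome 11, and Ccl2 and Ccl7 are neighbours elsewhere on it. The 9 measured genes that flank the ligands and are not among them had differences of -0.20 to 0.19 and 0 passed (limma; lowest adjusted p = 0.997).

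Within the genotypes, replicate 3 was the highest of the 3 arrays in both Ppara+/+ and Ppara-/- for 6 of the 10 ligands, Ccl3, Ccl4, Ccl5, Cxcl2, Cxcl10 and Cxcl16. Of all genes 14.1% had this order. Cxcl2 lay 1.10 log2 units above the mean of replicates 1 and 2 in Ppara-/- and 1.10 in Ppara+/+, and Cxcl10 lay 1.34 and 0.50 above. Ccl6 and Ccl2 were highest on replicate 3 in Ppara-/-, but in Ppara+/+ Ccl2 was highest on replicate 1 and Ccl6 was equal on replicates 1 and 3. Ccl9 ran the other way, with replicate 1 highest in both genotypes. The pattern was noticed in the data, and the labels do not say that a replicate number marks a shared animal, day or batch.

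**Figure D3:**
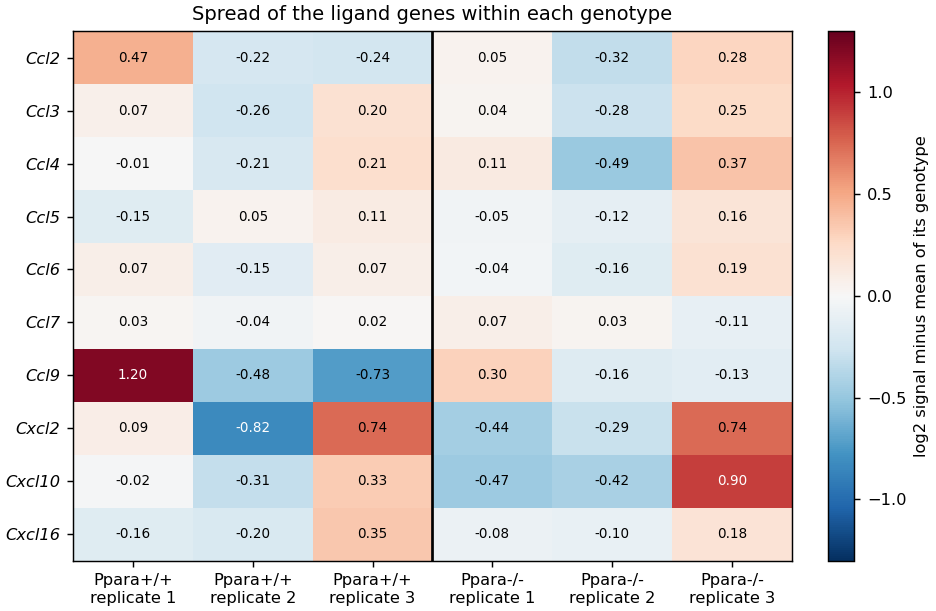
Log2 signal of each ligand gene (rows) on each array (columns) minus the mean of its genotype; red is above and blue below that mean, and the black line parts the genotypes. Replicate 3 of both genotypes is positive for Ccl3, Ccl4, Ccl5, Cxcl2, Cxcl10 and Cxcl16, and Ccl9 has the largest deviation, 1.20 on Ppara+/+ replicate 1.

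The same order was seen in genes of the Toll-like receptor and NF-kB route, where 14 of 24 measured genes were highest on replicate 3 in both genotypes, beside the 14.1% of all genes. Among these, singled out after their values were seen, were Tnfaip3, an NF-kB target that dampens the pathway, with 8.72, 8.01 and 9.76 in Ppara+/+ and 8.49, 8.74 and 10.05 in Ppara-/- replicates 1 to 3. The cytokine gene Il1b gave 6.99, 6.78 and 8.59 against 6.68, 7.17 and 7.86, and the inhibitor gene Nfkbia 9.76, 9.39 and 10.12 against 9.74, 9.91 and 10.88. In all 3 genes the highest value of each genotype was on replicate 3. Handling stress genes also had their highest list means on these arrays, 11.34 in Ppara+/+ replicate 3 and 11.09 in Ppara-/- replicate 3 against 10.52 to 10.89 on the other 4, with 3 of 8 measured genes in this order. Outside these lists, 11 of 27 other chemokine ligands, all with means under 7.91, and 3 of 6 genes of chemokine mRNA decay had this order. So did 4 of 14 genes of the interferon route, 1 of 9 proteases, 1 of 14 other chemokine receptors and 0 of 7 receptors of the ligands. The part of any of these genes in the ligand values was not tested.

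By genotype the NF-kB route was split, with 12 negative and 12 positive differences and a median of 0.02. Ticam2, the adaptor TRAM that links Toll-like receptor 4 to interferon signals, was the 1 member that passed, with a log2 difference of -1.51 (SE 0.18; 4.71 in Ppara-/- against 6.21; limma adjusted p = 0.0315). It passed in 8 of 17 other fits, whose adjusted p ran from 0.00368 to 0.223. All Ticam2 values were under the 95th percentile of the negative controls. In Ppara-/- replicates 1 to 3 it gave 4.82, 4.49 and 4.81, near the negative-control medians of those arrays (4.63, 4.99 and 4.65). Ly96, the co-receptor MD-2 of the same receptor, had 5.79 against 6.90 (adjusted p = 0.223, and 0.0404 in limma without Ppara+/+ replicate 2) and Tlr4 itself 6.61 against 6.11 (adjusted p = 0.918). Irak1, Irak4, Chuk and Nfkb1 had no probe set of their own here. Of the 14 measured genes of the interferon route to Cxcl10, 8 had negative and 6 positive differences. None passed (limma; 2 at an unadjusted p under 0.05, against 5.78% of all genes). These 2 were Ifngr2, a chain of the interferon gamma receptor, with 8.56 against 8.93, and the myeloid factor Irf8, with 8.08 against 8.88. Irf8 gave 8.84, 8.91 and 8.88 in Ppara+/+ and 8.47, 7.13 and 8.64 in Ppara-/- replicates 1 to 3. Its lowest value, on Ppara-/- replicate 2, stood apart, and the log2 difference of -0.80 was -0.32 without that array. The interferon-induced factor Irf1 had 8.06 against 7.62 and Stat2 8.30 against 8.04 (adjusted p = 0.896 and 0.986).

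The receptor that Ccl6, Ccl9, Ccl3 and Ccl5 share went the opposite way to Ccl6. Ccr1 rose from 7.00 to 8.84, with 7.61, 6.59 and 6.81 in Ppara+/+ and 8.76, 9.03 and 8.72 in Ppara-/- replicates 1 to 3 (log2 difference 1.83, SE 0.24; limma adjusted p = 0.0427). It passed in 7 of 18 other fits, whose adjusted p ran from 0.000557 to 0.296. It was 1 of 7 measured receptors of the ligands, and the other 6 did not pass. Ccr2, the receptor of Ccl2 and Ccl7, had 7.13 against 6.77 (adjusted p = 0.875), Cxcr3, that of Cxcl10, 4.88 against 5.08, and Ccr3 2.77 against 2.60 (both adjusted p = 0.997).

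Markers of monocytes and macrophages, the cells in which Ccl2 and Ccl6 are known best, lay lower on the same arrays as these 2 genes. Of 13 measured markers 10 had a negative difference, with a median of -0.66, and the list mean was 8.77 to 9.07 on the Ppara+/+ arrays and 8.14 to 8.49 on the Ppara-/- arrays, without overlap. None passed over all genes (limma; 7 lower and 0 higher at an unadjusted p under 0.05, against 5.78% of all genes in either direction). Of the 13, 10 had a mean above 7.91, the least of the 6 negative-control 95th percentiles. The brightest were Ly6c2 (13.04 against 13.17), Lyz2 (11.88 against 12.09) and Itgam (11.15 against 11.09), which granulocyte precursors also express. Csf1r, the macrophage growth factor receptor, singled out after its values were seen, had 8.35 against 9.28 (limma adjusted p = 0.361), a log2 difference of -0.94 that was -0.64 without Ppara-/- replicate 2. The part of these markers in the Ccl6 and Ccl2 results was not tested.

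Markers of lymphoid, platelet and erythroid cells were dim in both genotypes. Such cells of the host lack the virus, and the sort for GFP was to remove them. All 9 T cell, 8 NK cell, 7 B cell, 6 platelet and 4 erythroid markers measured had means under that 7.91. The brightest T cell markers were Cd28 (5.97 to 6.57) and Cd5 (5.86 to 6.32), which lay above the negative-control median on all 6 arrays, and Cd8b1 (4.89 to 5.37), which did so on 4. The brightest NK cell markers, Tbx21 (5.06 to 5.76), Prf1 (4.66 to 5.03) and Eomes (4.55 to 5.03), did so on 5, 4 and 3 arrays. Under that median on every array were 2 of the 9 T cell and 5 of the 8 NK cell markers. The list mean on an array was 4.80 to 5.12 in Ppara+/+ and 4.90 to 5.07 in Ppara-/- for T cells, and 3.90 to 4.16 and 4.01 to 4.17 for NK cells, the lymphoid cells that also make Ccl5, and their part in the Ccl5 signal was not tested. Of 11 neutrophil markers 3 had negative and 8 positive differences, with list means of 10.07 to 10.56 in Ppara+/+ and 10.47 to 10.64 in Ppara-/-. Stroma (5.39 to 5.61 and 5.34 to 5.54) and dendritic cells (5.39 to 5.55 and 5.30 to 5.50) also overlapped. Of these 8 kinds of cell 0 markers passed (limma; 4 lower and 2 higher at an unadjusted p under 0.05, against 5.78% of all genes in either direction). The nearest to the threshold, singled out after its values were seen, was Pdgfrb, a growth factor receptor of stroma, with 5.71 in Ppara-/- against 6.74 in Ppara+/+ (adjusted p = 0.0698). The rest of its list did not follow it. Of the 9 stroma markers 3 had negative and 6 positive differences, with a median of 0.03.

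The genes whose signals ran most like those of Ccl6 and Ccl2 were found among 2283 genes above 8.23, the highest 95th percentile of the negative controls. Each gene was centred on its mean over the 6 arrays, and likeness was the mean absolute difference from the centred profile of the ligand. For Ccl6 the nearest were Psap, the precursor of lysosomal saposins (0.10), the interleukin 6 receptor Il6ra (0.10), the macrophage lysosomal protein Cd68 (0.13), the intermediate filament Vim (0.14) and Smap2 (0.15), a regulator of vesicle traffic. For Ccl2 they were Emb (0.07), a cell adhesion glycoprotein, Tifab (0.14), Vim (0.15), the beta-glucan receptor Clec7a (0.15) and Lilra6 (0.15). Ccl2 and Ccl6 lay 0.19 from each other, while the other 8 ligands lay 0.44 to 0.73 from Ccl6. None of these 9 nearest genes passed the test (adjusted p of 0.135 to 0.478), and since both ligands differ by genotype, nearness includes that shared difference.

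**Figure D4:**
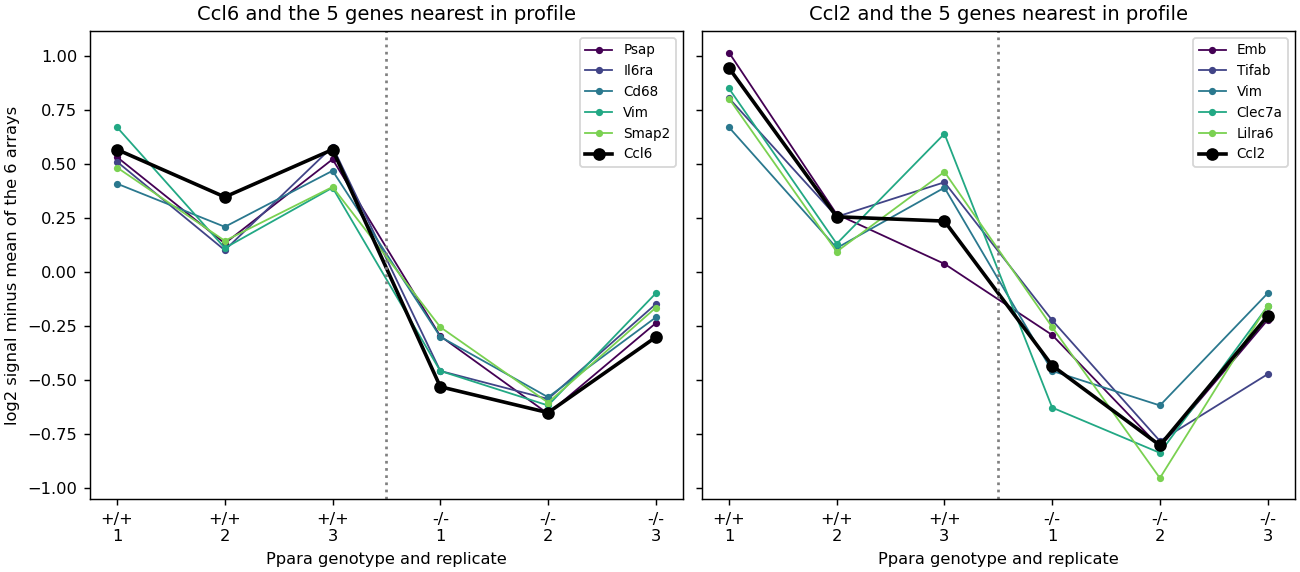
Log2 signal minus the mean of the 6 arrays (vertical axis) for Ccl6 and Ccl2 (black) and the 5 genes nearest to each in profile (coloured), by genotype and replicate; lines only join the values of a gene. In both panels every gene lies above 0 on all Ppara+/+ arrays and under 0 on all Ppara-/- arrays.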

How the data were processed

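Per the labels' protocols, total RNA of sorted cells was labelled with biotin and hybridised to Affymetrix arrays. The table as deposited holds log2 signals of probe sets. RMA and limma are the tools named in the submitters' processing notes, without versions or settings. RMA quantile normalization removes a shift common to most genes. The genome build of the annotation is not given in the sources used here. Of 72688 rows 6732 were controls. The platform annotation paired 30604 rows with 1 gene symbol and 2146 with several, and 33206 were unnamed here; older symbols were updated by gene ID with the RefSeq table of GRCm38.p6. The highest-mean row stood for each of 30142 genes (355 had several). No filter was set on dim genes. The comparison used lmFit and eBayes of limma 3.58.1 (R 4.3.3) on all 6 arrays without covariates, and the fit was tested on simulated data. SE and intervals are the moderated ones. Every adjusted p is from this fit over all genes unless another is named.

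The members and gene lists were chosen with earlier results of these data known. Named genes were the 10 ligands, genes past the threshold and up to 4 with the smallest p in each pathway list, the 3 brightest of the monocyte, progenitor, T cell and NK cell lists, and the 5 nearest profiles of the 2 ligands with the smallest p. Tnfaip3, Il1b, Nfkbia, Csf1r and Pdgfrb fall outside this rule and were chosen after their values were seen. So do Cxcl3, Ccl27a and Ccl25, named for the highest means among the other chemokine ligands, and Ppara, named as the disrupted gene. Replicate numbers were not used as pairs. Alternatives were 2 filters against dim genes, 3 ways to rescale the arrays, averaging a gene's probe sets, testing every row, a trended prior, weights on arrays, a replicate block, a negative-control covariate and arrays left out. The number of arrays limits the precision. Plots were made with Python 3.11.15 and matplotlib 3.10.9.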

Additional observations from a re-analysis of the deposited data

How the results depend on the processing

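Ccl6 and Ccl2 were negative in all 17 other fits that held them, and Ccl5, Cxcl2 and Cxcl10, which never passed, were positive in all of theirs, 17, 18 and 16, but with 1 array left out they ranged from 0.062 to 0.20, 0.0083 to 0.79 and 0.015 to 0.70. The count of ligands past the threshold, 1 with all arrays, was 0 with arrays centred on the gene median, with the negative-control shift (Ccl6 adjusted p = 0.617), among genes above the 95th percentile of the negative controls (which held 2 ligands), over all rows, with the replicate block, with the negative-control covariate, without the 2 arrays of highest negative-control median and at a threshold of 0.01; with 1 array left out it was 0 to 1. The chemokine pathway lists had 2 genes past the threshold, and 0 with gene-median centring, quantile normalization, that filter, all rows, the 2 arrays left out or a threshold of 0.01. Their count was 1 with the replicate block or the covariate, 3 with array weights, and 0 to 2 with 1 array left out. The marker lists had 0, and 1 with the trended prior or a threshold of 0.1, 5 with array weights and 0 to 1 with 1 array left out. Over all genes the count was 38, and 13 with gene-median centring, 23 with quantile normalization, 22 with the negative-control shift, 4 with the filter, 70 with the trended prior, 271 with array weights, 12 with the replicate block, 0 without the 2 arrays, 76 and 7 at thresholds of 0.1 and 0.01, and 6 to 38 with 1 array left out (6 when Ppara-/- replicate 1 was dropped, 13 for Ppara+/+ replicate 3 and 17 for Ppara-/- replicate 2 or 3). The cause was not tested.

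Differences that turned sign were all of genes that did not pass. With the negative-control shift they were 0.013 for Ccl3 and Ccl4, 0.087 for Ccl7 and 0.027 for Cxcl16. Without the 2 arrays they were 0.065 for Ccl3 and 0.13 for Ccl4. With single arrays left out Ccl3 ranged from -0.24 to 0.032, Ccl4 from -0.30 to 0.13, Ccl7 from -0.073 to 0.017, Ccl9 from -0.34 to 0.63 and Cxcl16 from -0.20 to 0.08. Ccl9 was negative without Ppara+/+ replicate 2 (-0.21), Ppara+/+ replicate 3 (-0.34) or Ppara-/- replicate 1 (-0.12).

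The labels do not say whether replicate numbers pair the samples. Over genes, deviations from the genotype means correlated at -0.33, -0.47 and 0.11 for numbers 1, 2 and 3. The highest correlation, 0.5, was between Ppara-/- replicate 2 and Ppara+/+ replicate 1. These are the 2 arrays of highest negative-control median, so background can enter such correlations and they do not decide the pairing. With the replicate number as a block Ccl6 had an adjusted p of 0.0726 in limma, Ccl2 of 0.264.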

Other observations

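The 27 other chemokine ligand genes measured all had means under 7.91, where the negative controls of the array with the least background reach their 95th percentile. Cxcl3 had the highest mean, 7.72, and its 8.13 on Ppara-/- replicate 3 was above the 95th percentile of that array. Ccl27a (mean 6.64) and Ccl25 (6.33) also lay above the negative-control medians. None of the 27 passed (limma; 0 lower and 1 higher at an unadjusted p under 0.05, against 5.78% of all genes in either direction). The 1 was Cxcl9, an interferon-induced relative of Cxcl10, with 3.83, 3.88 and 3.92 in Ppara+/+ and 4.12, 4.35 and 4.42 in Ppara-/- replicates 1 to 3 (adjusted p = 0.382), lower on each array than the median negative control. Ccl26, Xcl1 and Ccl8 had differences of -0.21, 0.22 and 0.19 (adjusted p = 0.997 each).

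Of 14 other chemokine receptors measured 0 passed (limma; 2 lower at an unadjusted p under 0.05, against 5.78% of all genes in either direction). Both of the 2 bind no ligand of the 10. Cxcr4, the receptor that holds cells in the marrow, had 10.70 against 11.21 (adjusted p = 0.55) and the fractalkine receptor Cx3cr1 of monocytes 7.16 against 7.52 (adjusted p = 0.776), each without overlap between the genotypes. Among the 14, 3 lay lower without overlap and 1 higher, against 3.63% of all genes lower and 8.78% in either direction. The Cx3cr1 difference of -0.36 was -0.22 without Ppara+/+ replicate 3. Ccr1l1 and Ccr9 had differences of 0.23 and -0.15.

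Of 9 proteases that can shed or trim chemokines 0 passed (limma; 1 lower at an unadjusted p under 0.05, against 5.78% of all genes in either direction). Mmp8, the neutrophil collagenase, had 8.15 against 8.80 (adjusted p = 0.409), Ctsg 10.54 against 9.96, and Adam17 and Mmp9 7.34 against 7.57 and 9.63 against 9.38. Of 6 genes that control the decay of chemokine mRNA 0 passed (limma; 1 lower at an unadjusted p under 0.05, against the same 5.78%). That 1 was Zfp36l1, with 6.03 against 6.64 (adjusted p = 0.861; a difference of -0.61, and -0.38 without Ppara-/- replicate 2), and Zc3h12a, Elavl1 and Zfp36, which encodes tristetraprolin, had differences of 0.37, -0.15 and -0.07.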
